A study of Mus musculus with 6 samples.

Results

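The TRBJ1 cluster is the first of the 2 groups of joining (J) segments in the mouse T-cell receptor beta (TCRB) locus. All rearrangements assigned to TRBJ1-1 to TRBJ1-7 were taken, whatever the allele, and they made up 1412 of 4409 listed rearrangements and 2244 of 7043 templates. A rearrangement here is 1 distinct nucleotide sequence in 1 sample, so a sequence found in several samples is counted in each, and the 1412 held 1363 different sequences. A template is the deposited whole-number count of a rearrangement. The data came from splenic T follicular regulatory (Tfr) cells, a Foxp3-expressing subset of CD4 T cells found in B-cell follicles, sorted from 3 Foxp3GFP mice. Each mouse gave 1 sample labelled superior and 1 labelled inferior. The labels say no more about these words, and give no age, treatment or control genotype. Genomic DNA was amplified with the immunoSEQ mouse TCRB assay at survey resolution. The assay reads only the receptor locus, so no marker gene of Tfr cells could be checked.

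A beta chain gene is assembled in the developing thymocyte when a diversity (D) segment is joined to a J segment and a variable (V) segment is then joined to the DJ product. The RAG recombinase cuts beside each segment, bases are trimmed from the cut ends and others are added, and the junction encodes the third complementarity-determining region (CDR3), which meets the peptide. The J segment supplies the end of the CDR3 and the framework that follows it. TRBD1 lies upstream of both J clusters, while TRBD2 lies between them, so TRBD2 can be joined directly only to the TRBJ2 cluster.

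In the RefSeq table of GRCm38.p6, the assembly of mm10, the 7 segments lie in order on chromosome 6 within a short stretch. TRBJ1-1 (symbol Trbj1-1) is at chr6:41533864-41533911, and TRBJ1-7 (Trbj1-7) at chr6:41535642-41535687. Between them, TRBJ1-2 (Trbj1-2) starts 137, TRBJ1-3 (Trbj1-3) 459, TRBJ1-4 (Trbj1-4) 947, TRBJ1-5 (Trbj1-5) 1220 and TRBJ1-6 (Trbj1-6) 1690 bases after the start of TRBJ1-1. TRBD1 (chr6:41533201-41533212) ends 652 bases before TRBJ1-1 starts. TRBD2 starts 8299 bases after the start of TRBJ1-1, and all 7 are annotated as J segments. The sequenced window of 87 bases stops within the J segment, 31 bases before its RefSeq end. The part of each J segment inside the window was read from the rearrangements themselves, by majority at each position, and is shown because the CDR3 results turn on it. Capitals mark the bases that at least 90% of the different sequences of that segment still held after trimming.
TRBJ1-1: caaacaCAGAAGTCTTC
TRBJ1-2: caaaCTCCGACTACACC
TRBJ1-3: ttctGGAAATACGCTCTAT
TRBJ1-4: tttccaaCGAAAGATTATTT
TRBJ1-5: taacaaccaGGCTCCGCTT
TRBJ1-6: ttcctataATTCGCCCCTCTAC
These ends differ in length, from 17 bases in TRBJ1-1 and TRBJ1-2 to 22 bases in TRBJ1-6. The trimmed part also differs, from 4 bases in lower case in TRBJ1-2 and TRBJ1-3 to 9 in TRBJ1-5.

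Complete rearrangements show how these ends sit in a junction, with the bases that match the J segment in capitals. The TRBJ1 clonotype with the most templates, a TRBV31 to TRBJ1-4 joint with a CDR3 of 12 residues, was counted 14 times in mouse 3. The TRBJ1-1 clonotype with the most templates, joined to TRBV5, was counted 4 times in the same mouse. The other 2, also from TRBJ1-4 and both with TRBV2, are shown because each was found in 2 mice.
TRBV31 to TRBJ1-4: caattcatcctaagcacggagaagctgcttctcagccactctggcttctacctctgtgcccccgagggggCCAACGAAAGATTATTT
TRBV5 to TRBJ1-1: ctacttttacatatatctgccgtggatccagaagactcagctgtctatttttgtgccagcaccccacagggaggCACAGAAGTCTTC
TRBV2 to TRBJ1-4, 12 residues: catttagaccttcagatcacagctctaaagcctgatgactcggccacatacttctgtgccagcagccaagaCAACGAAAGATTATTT
TRBV2 to TRBJ1-4, 14 residues: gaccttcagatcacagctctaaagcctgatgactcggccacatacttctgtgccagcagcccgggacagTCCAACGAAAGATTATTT

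Samples held 667 to 1855 templates, of which 199 to 680 were TRBJ1. After leaving out 5 rearrangements (7 templates) with an unresolved J segment, TRBJ1 made up 31.9% of templates and 32.1% of rearrangements. With the superior sample given before the inferior, the TRBJ1 share of templates was 29.8% (95% Wilson interval 26.5 to 33.4) and 30.4% (28.01 to 32.9) for mouse 1. For mouse 2 it was 28% (25.4 to 30.7) and 31.2% (28.3 to 34.3), and for mouse 3 it was 31.4% (28.8 to 34.1) and 36.7% (34.5 to 38.9). The share was thus lower in the superior sample of each mouse, while the groups overlapped. Superior samples averaged 29.7% ± 1.70 (SD, n = 3) and inferior samples 32.8% ± 3.43 (SD, n = 3). The difference of -3.02 percentage points did not pass a two-sided exact permutation test (p = 0.3), whose smallest possible p is 0.1. That test treats the samples as unpaired. Paired by mouse, an exact sign-flip permutation test gave p = 0.25, the smallest possible over 3 mice. The difference was -1.88 points without mouse 3 and -4.25 without mouse 1. Counted by distinct rearrangements the means were 31.02% ± 0.576 and 32.4% ± 1.80 (SD, n = 3 each), with an exact permutation p of 0.3. All intervals here cover counting error only, since amplified DNA counts are not independent molecules, and p-values measure the spread between samples of 3 mice.

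The order of the segments depended on what was counted. By distinct rearrangements TRBJ1-1 led, with 8.03% ± 0.954 (SD, n = 6) of a sample, followed by TRBJ1-4 with 6.44% ± 0.487, TRBJ1-3 with 5.74% ± 0.356, TRBJ1-2 with 5.26% ± 0.584, TRBJ1-5 with 3.40% ± 0.942 and TRBJ1-6 with 2.77% ± 1.01. By templates TRBJ1-4 and TRBJ1-3 led with 7.18% ± 0.689 and 7.14% ± 0.706 (SD, n = 6). TRBJ1-1 then had 5.34% ± 0.806, TRBJ1-2 5.33% ± 1.28, TRBJ1-5 4.35% ± 1.14 and TRBJ1-6 1.84% ± 0.535.
In the order by rearrangements, TRBJ1-1 exceeded TRBJ1-4 in 6 of 6 samples, but the ranges over samples overlapped. In the order by templates, TRBJ1-3 exceeded TRBJ1-1 and TRBJ1-5 exceeded TRBJ1-6 in 6 of 6 samples without overlap. The pairs TRBJ1-4 with TRBJ1-3 and TRBJ1-1 with TRBJ1-2 did not differ beyond their spread by templates. TRBJ1-4 was above TRBJ1-3 in 3 of 6 samples and TRBJ1-1 above TRBJ1-2 in 3 of 6, and each pair was equal in 1 sample.

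The gap between both shares went one way in all samples for 4 segments. TRBJ1-1 had a lower share by templates than by rearrangements in 6 of 6 samples, by -2.70 ± 0.321 percentage points (SD, n = 6). TRBJ1-6 was also lower in 6 of 6 samples, by -0.933 ± 0.492 points. TRBJ1-3 was higher by templates in 6 of 6 samples, by 1.40 ± 0.458 points, and TRBJ1-5 in 6 of 6 samples, by 0.953 ± 0.289 points. TRBJ1-4 was higher in 5 of 6 samples and TRBJ1-2 in 2 of 6.

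**Figure D1:**
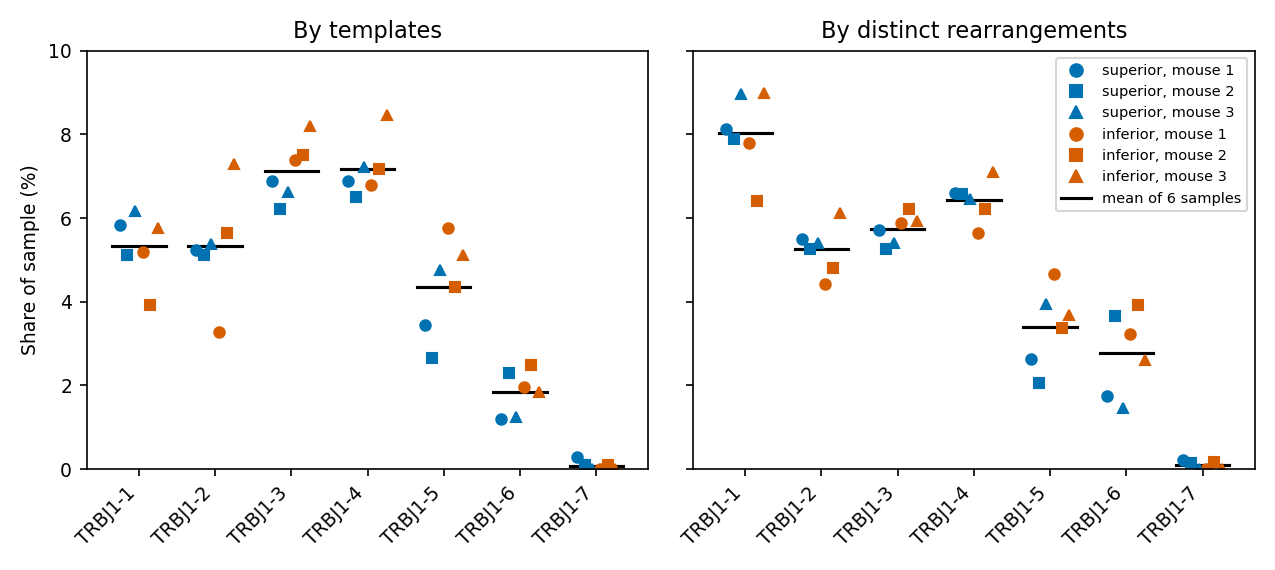
Share of each sample held by each TRBJ1 segment, by templates (left) and by distinct rearrangements (right), in percent. Each point is 1 sample, coloured by group and shaped by mouse, and the line is the mean of 6 samples. TRBJ1-1 averages 5.34% by templates and 8.03% by rearrangements.

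The same contrast appears as templates per rearrangement, a measure of how often 1 joined sequence was counted. TRBJ1-1 rearrangements averaged 1.05 and 1.09 templates in mouse 1, superior sample before inferior, 1.04 and 1 in mouse 2, and 1.03 and 1.07 in mouse 3. TRBJ1-6 averaged 1 and 1 in mouse 1, 1 and 1.045 in mouse 2, and 1.27 and 1.17 in mouse 3. Neither segment left the region near 1 template in mice 1 and 2, and TRBJ1-6 was higher only in mouse 3, where 11 and 29 rearrangements carried the values.
The 4 segments between them were counted more often. TRBJ1-2 averaged 1.40 and 1.22 in mouse 1, 1.56 and 1.93 in mouse 2, and 1.49 and 1.99 in mouse 3, superior sample before inferior. TRBJ1-3 averaged 1.77 and 2.06, 1.89 and 1.97, and 1.83 and 2.30 in mice 1, 2 and 3. The values of TRBJ1-3 lay above every value of TRBJ1-1 and TRBJ1-6.
TRBJ1-4 averaged 1.53 and 1.98, 1.58 and 1.89, and 1.67 and 1.99 in the same order. TRBJ1-5 averaged 1.92 and 2.03, 2.07 and 2.11, and 1.80 and 2.32. TRBJ1-5 had the highest mean, 2.04 ± 0.176 (SD, n = 6), against 1.047 ± 0.0324 for TRBJ1-1, but it exceeded TRBJ1-3 in only 4 of 6 samples.

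Pooled over samples, 342 of 360 TRBJ1-1 rearrangements, 95% (Wilson interval 92.2 to 96.8), were single-template, and so were 114 of 122 TRBJ1-6 rearrangements, 93.4% (87.6 to 96.6). The share was 58.5% of 234 in TRBJ1-2, 39.9% of 253 in TRBJ1-3, 52.6% of 285 in TRBJ1-4 and 32.3% of 155 in TRBJ1-5. No TRBJ1-1 or TRBJ1-6 rearrangement had more than 3 templates in a sample. All 43 TRBJ1 rearrangements with 5 or more templates belonged to TRBJ1-2 (8), TRBJ1-3 (11), TRBJ1-4 (16) or TRBJ1-5 (8). TRBJ1-1 therefore supplied the most distinct rearrangements of the cluster and none of its frequently counted ones.

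The contrast was present within V segments and within CDR3 lengths. In each of the 18 V segments with at least 5 rearrangements on both sides, TRBJ1-1 and TRBJ1-6 together had fewer templates per rearrangement than TRBJ1-2 to TRBJ1-5 together. The same held in 6 of 6 CDR3 lengths. Both groups of segments were formed after their values were seen, so these counts are a description. An alternative with V segments weighted alike in all segments was also added after the values were seen. Its means were 1.04 for TRBJ1-1, 1.07 for TRBJ1-6 and 1.60 to 2.06 for the other 4. When rearrangements with the same V, CDR3 nucleotides and J were merged, the means were 1.07, 1.12 and 1.83 to 2.25. Whether the assay counted all J segments with equal efficiency was not tested.

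**Figure D2:**
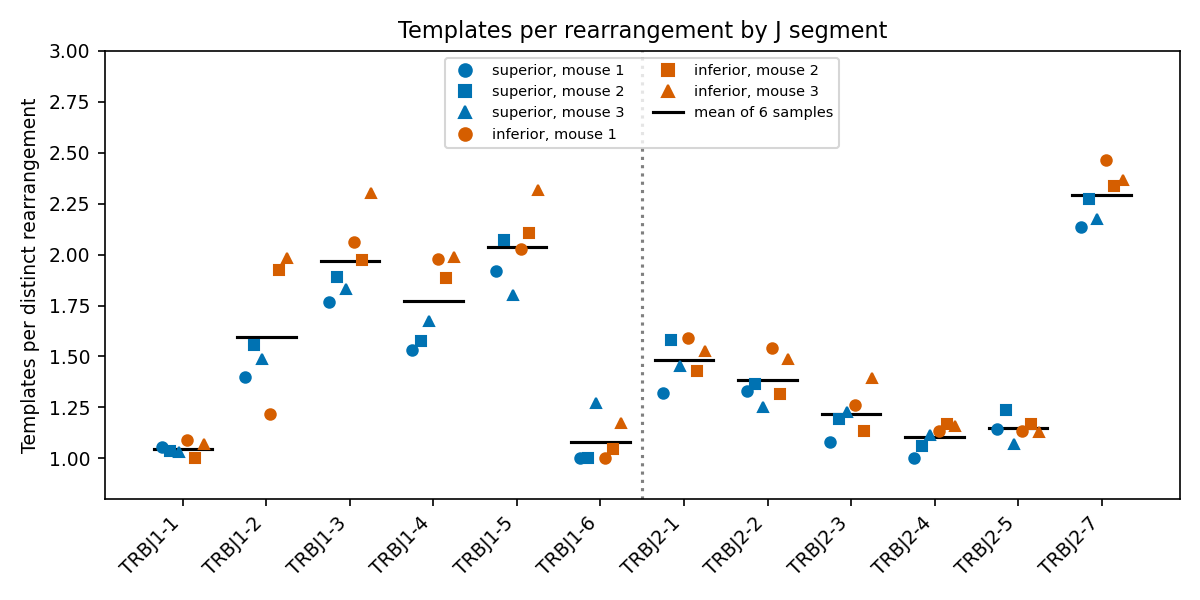
Templates per distinct rearrangement of each J segment in locus order, with TRBJ1 left and TRBJ2 right of the dotted line. Each point is 1 sample and the line is the mean of 6 samples. TRBJ1-1 and TRBJ1-6 average 1.047 and 1.08, TRBJ1-3 and TRBJ1-5 1.97 and 2.04, and TRBJ2-7 2.29.

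Low values were not particular to the TRBJ1 cluster. TRBJ2-4 and TRBJ2-5 averaged 1.11 ± 0.0655 and 1.15 ± 0.0543 templates per rearrangement (SD, n = 6), and 91.5% and 90.5% of their pooled rearrangements were single-template. TRBJ2-7 stood highest with 2.29 ± 0.124. Over mice, TRBJ1 as a whole exceeded TRBJ2-1 to TRBJ2-5 by 0.308 ± 0.0558 (SD, n = 3), with the same sign in 6 of 6 samples. It lay below TRBJ2-7 by -0.732 ± 0.0815 (SD, n = 3), again with the same sign in 6 of 6 samples. Each difference had an exact sign-flip permutation p of 0.25 over 3 mice, the smallest the design allows. Without TRBJ1-1 and TRBJ1-6, an alternative added after the values were seen, the excess over TRBJ2-1 to TRBJ2-5 was 0.570.
The cluster's share by templates minus its share by rearrangements averaged -0.470 ± 1.27 points (SD, n = 3 mice; two-sided exact sign-flip permutation p = 0.5). It was -0.210, -0.007 and -1.19 points without mouse 1, 2 and 3, so its size rests on single mice. With TRBJ2-7 left out of both totals, also added after the values were seen, it was 5.36 points (exact p = 0.25).

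Along the cluster, the share of rearrangements tended to be lower at larger distance from TRBJ1-1. Across the 6 segments with enough counts, Pearson's r with the distance was -0.81 and Spearman's rho -0.77. The order was not strict. The mean share rose from TRBJ1-2 at 137 bases (5.26%) over TRBJ1-3 at 459 (5.74%) to TRBJ1-4 at 947 bases (6.44%). TRBJ1-3 exceeded TRBJ1-2 in 3 of 6 samples and TRBJ1-4 exceeded TRBJ1-3 in 4 of 6. By templates r was -0.60 and rho -0.49. Templates per rearrangement had no such order (r = 0.04, rho = 0.37). The low values belonged to the first and last of these 6 segments, TRBJ1-1 at 0 and TRBJ1-6 at 1690 bases. The 6 points share the same libraries and are a description.

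**Figure D3:**
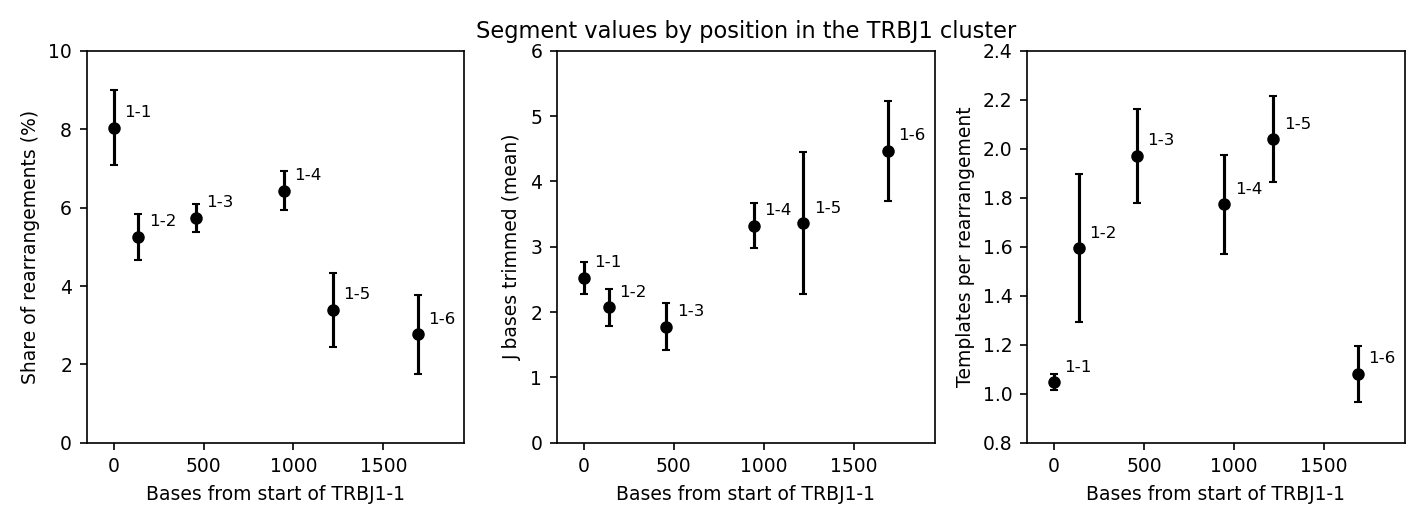
Share of rearrangements in percent, mean J bases trimmed and templates per rearrangement of TRBJ1-1 to TRBJ1-6 against the distance in bases from the start of TRBJ1-1. Points are means and bars the SD over 6 samples. Trimming is 1.78 bases in TRBJ1-3 and 4.47 in TRBJ1-6. Templates per rearrangement are lowest in TRBJ1-1 and TRBJ1-6, the first and last of the 6 segments shown.

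TRBJ1-7, the most distal segment, lies just downstream of TRBJ1-6 and had 4 templates in 3 rearrangements. Mouse 1 had 2 of these templates, both superior, and mouse 2 had 1 in each sample. The other 3 samples listed none, which allows a share of up to 0.162% to 0.264% of their templates. With TRBV3, 1 TRBJ1-7 rearrangement had a listed CDR3 of 15 residues that started with cysteine. Its last 18 bases equalled the majority end of TRBJ2-3 at 17 positions, and it is shown with the equal bases in capitals because its J assignment is uncertain.
TRBJ1-7 with TRBV3: AGTGCAGAAACGCTGTgT
The other 2 paired with TRBV27, and their listed CDR3s, of 3 and 9 residues, did not start with cysteine. No majority end was read for TRBJ1-7, so its own end was not among those compared. Of the ends of other J segments, the closest matched them at 10 of 20 and 8 of 17 bases. Both sequences end in acccacctgtgt.
TRBJ1-7 with TRBV27, superior mouse 1: cctccacactcaacccacctgtgt
TRBJ1-7 with TRBV27, inferior mouse 2: aagcgagtgaacacccacctgtgt
No CDR3 or pairing statistic was computed for this segment.

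CDR3 length differed among the segments. It was counted in residues over 1387 TRBJ1 rearrangements, since 25 listed a CDR3 that did not start with cysteine. TRBJ1-1 gave the shortest CDR3s, 13.2 ± 0.152 residues (SD, n = 6), with 13.3, 13.3, 13.3, 12.9, 13.2 and 13.1 in superior 1, inferior 1, superior 2, inferior 2, superior 3 and inferior 3. TRBJ1-6 gave 14.2 ± 0.340 and TRBJ1-3 14.1 ± 0.216, with every sample of either segment above every sample of TRBJ1-1. TRBJ1-4 averaged 13.9 ± 0.249, TRBJ1-2 13.5 ± 0.0677 and TRBJ1-5 13.4 ± 0.225. TRBJ1-4 exceeded TRBJ1-2, its neighbour in this order, in 6 of 6 samples. TRBJ1-2 and TRBJ1-5 did not differ beyond their spread.

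The J segment itself supplied the part of the CDR3 that varied most. TRBJ1-1 contributed 14.5 ± 0.240 bases up to the end of the window (SD, n = 6), TRBJ1-2 14.9 ± 0.289, TRBJ1-5 15.6 ± 1.09, TRBJ1-4 16.7 ± 0.346, TRBJ1-3 17.2 ± 0.358 and TRBJ1-6 17.5 ± 0.760. All other CDR3 bases, from V, D and added nucleotides, averaged 21.7 ± 0.924 in TRBJ1-5 to 22.4 ± 0.401 in TRBJ1-2. The segment means thus spread over about 3 bases in the J part and under 1 base in the rest.
Trimming differed among the J ends. TRBJ1-3 lost 1.78 ± 0.358 bases and kept its full end in 46.3% of different sequences. TRBJ1-6 lost 4.47 ± 0.760 bases and kept it in 20.5%. Across 6 segments, mean trimming had r = 0.88 and rho = 0.77 with the distance from TRBJ1-1, and r = 0.80 and rho = 0.65 with the length of the J end in the window. The longer ends lie mostly further downstream, so both are given as a description and cannot be told apart here. Chance matches between added bases and the J end count as kept, which lowers the estimate of trimming. Matching stopped at the first mismatch from the end of the window, so a sequence error inside the J part raises it.

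**Figure D4:**
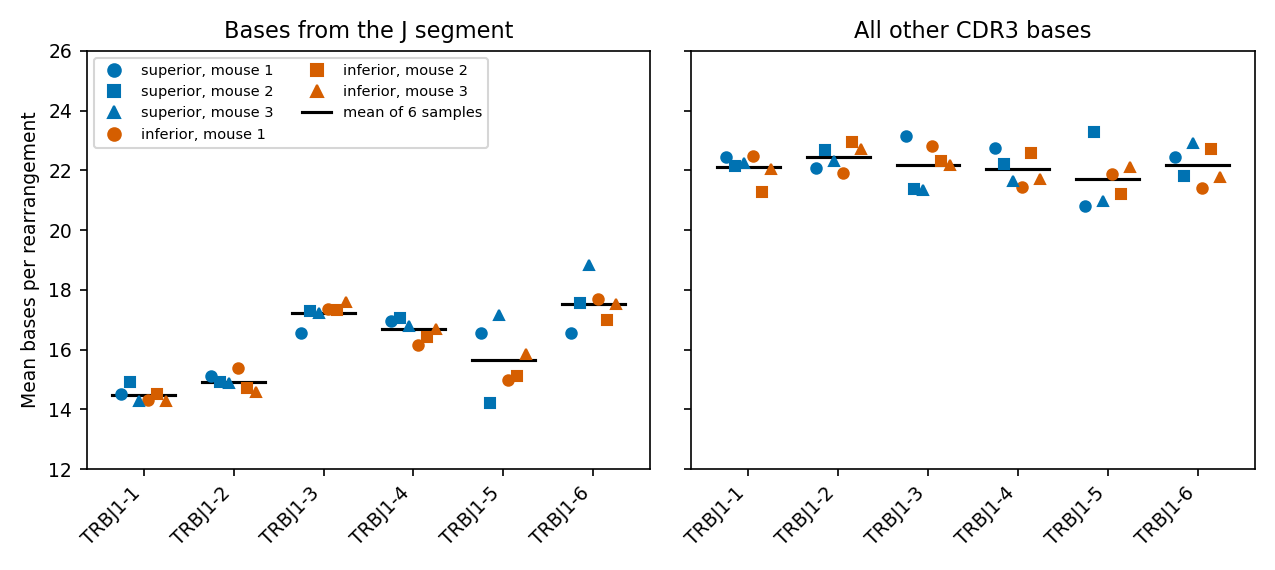
Mean CDR3 bases that match the J segment (left) and mean of all other CDR3 bases (right) per distinct rearrangement, for TRBJ1-1 to TRBJ1-6. Each point is 1 sample and the line the mean of 6 samples, and the axis starts at 12 bases. The J part averages 14.5 bases in TRBJ1-1 and 17.5 in TRBJ1-6, while the other bases average 21.7 to 22.4.

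Against the TRBJ2 cluster, the mean TRBJ1 CDR3 length differed by -0.171 ± 0.0885 residues (SD, n = 3 mice). The difference had the same sign in 3 of 3 mice and in 5 of 6 samples (exact sign-flip permutation p = 0.25, the smallest possible). It was -0.417 when TRBJ2-7, whose own CDR3s averaged 13.4 residues, was left out. Weighted by templates it was -0.036.
In edgeR's quasi-likelihood test of 9 length classes, 0 were called at an adjusted p of 0.05 (0% of those tested). At an unadjusted p under 0.05 there were 2, the 15- and 16-residue classes, and DESeq2 called 1, the 14-residue class, higher with TRBJ1. Lengths of 14 residues made up 32.3% ± 1.85 of TRBJ1 and 28.4% ± 2.59 of TRBJ2 rearrangements, and 15 residues 17.8% ± 2.25 and 22.03% ± 2.36 (SD, n = 3 mice). Against TRBJ2 without TRBJ2-7, 5 classes were called by edgeR. TRBJ2-7 was set apart with earlier results of these data known, and its mean CDR3 was the shortest of the TRBJ2 segments. Leaving it out therefore shifts the rest of TRBJ2 to longer CDR3s, and these 5 calls are a description. The 11- and 12-residue classes were higher with TRBJ1 (log2 differences 0.61 and 0.69, adjusted p = 0.0148 and 0.000572), and the 15-, 16- and 17-residue classes were lower (-0.45, -0.76 and -1.31, adjusted p = 0.0125, 0.000572 and 0.0106).

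Pairing with V segments was compared on distinct rearrangements, where each is counted once per sample. The V segments with the highest shares of TRBJ1 rearrangements were TRBV3 with 11.9% ± 2.34 (SD, n = 6), TRBV13-2 with 10.5% ± 2.67, TRBV19 with 10.3% ± 3.06, TRBV2 with 8.43% ± 1.27 and TRBV5 with 7.40% ± 1.70. Between TRBJ1 and TRBJ2, edgeR's quasi-likelihood test with the mouse as a block made 1 call among 23 V segments (4.35%). TRBV13-2 made up 10.2%, 11.7% and 10.6% of TRBJ1 rearrangements in mice 1, 2 and 3, against 14.4%, 15.9% and 13.3% of TRBJ2 rearrangements. It was lower with TRBJ1 in 6 of 6 samples, with a log2 difference of -0.42 (SE 0.12, edgeR adjusted p = 0.0408).
The direction was the same in all 11 alternatives, but the call was lost in 9. With DESeq2, with no filter and with 6 samples the log2 difference was again -0.42, with adjusted p of 0.90, 0.0515 and 0.0531. It was -0.41 with merged clonotypes (adjusted p = 0.131 in edgeR) and -0.36 on templates (0.368). Against TRBJ2 without TRBJ2-7 the difference was -0.29 (adjusted p = 0.424). Without mouse 1, 2 or 3 it was -0.38, -0.40 and -0.48, with adjusted p of 0.199, 0.608 and 0.137.

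No other V segment was called. The largest differences towards TRBJ1 were 1.23 for TRBV21 (SE 1.22), 0.88 for TRBV30 (SE 0.997) and 0.52 for TRBV20 (SE 0.23, adjusted p = 0.342) on the log2 scale. Those towards TRBJ2 were -0.80 for TRBV14 (SE 0.70), -0.74 for TRBV23 (SE 0.64) and -0.61 for TRBV17 (SE 0.66). TRBV21, TRBV30 and TRBV14 rested on 6, 8 and 9 TRBJ1 rearrangements, so their errors were as large as or close to the differences. TRBV20, TRBV2, TRBV3 and TRBV31 each had a higher share with TRBJ1 in 5 of 6 samples. With both samples of a mouse summed, TRBV2 and TRBV3 were higher in 3 of 3 mice, and TRBV20 and TRBV31 in 2. In the other direction, TRBV16 had a higher share with TRBJ1 in 0 of 6 samples, as TRBV13-2 did. Its log2 difference was -0.37 (SE 0.23, edgeR adjusted p = 0.471). Summed by mouse, TRBV12-2, TRBV15, TRBV16 and TRBV23 were higher with TRBJ1 in 0 of 3 mice. Among the 23 V segments tested, the share of a V segment's rearrangements that used TRBJ1 ran from 20.9% of 43 in TRBV14 to 54.5% of 11 in TRBV21. Over 23 V segments that share the same libraries, it had r = -0.21 and rho = -0.21 with the distance upstream of TRBJ1-1. TRBV31 lies downstream and entered with a negative distance. Without TRBV31, r was -0.15 and rho -0.11. Over the 19 V segments with 50 or more rearrangements, r was -0.12 and rho -0.06.

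**Figure D5:**
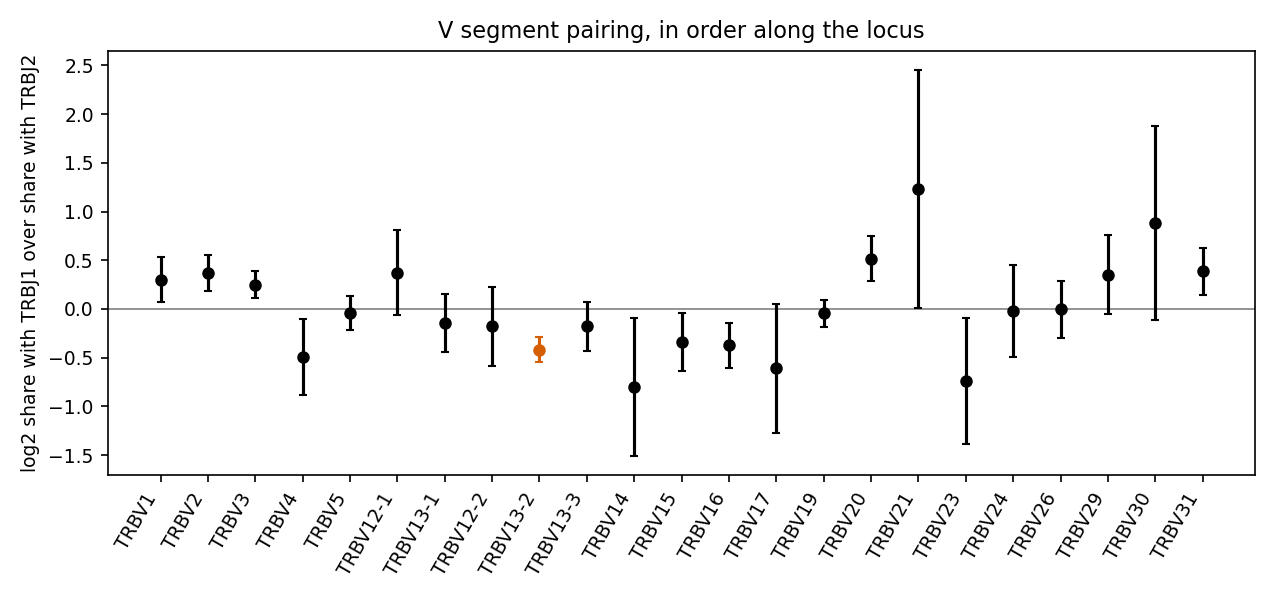
Log2 of each V segment's share among TRBJ1 rearrangements over its share among TRBJ2 rearrangements, for the 23 V segments tested, in order along the locus. Points are edgeR estimates and bars are 1 SE. TRBV13-2, in orange at -0.42, is the single call, and it was lost in 9 of 11 alternatives.

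Among the TRBJ1 segments, V pairing was tested for any difference within mice, and 0 of 20 V segments (0%) were called by edgeR, with 4 at an unadjusted p under 0.05. DESeq2 also called 0, with 4 at an unadjusted p under 0.05. TRBV5, TRBV3 and TRBV16 had the smallest adjusted p in edgeR, 0.0932 each, and were chosen for mention after their values were seen. TRBV5 held 14.5% ± 7.25 of TRBJ1-6 and 10.3% ± 3.04 of TRBJ1-3 rearrangements, but 2.60% ± 0.566 of TRBJ1-5 and 3.34% ± 3.19 of TRBJ1-2 (SD, n = 3 mice). TRBV3 ran from 3.45% ± 1.97 of TRBJ1-6 to 14.7% ± 3.33 of TRBJ1-1. TRBV16 ran from 0.709% ± 1.23 of TRBJ1-6 to 6.75% ± 2.56 of TRBJ1-3.
Of 9 alternatives, 4 called 2 V segments each and 5 called 0. Without the mouse as a block they were TRBV3 (edgeR adjusted p = 0.0484) and TRBV5 (0.0484), and on templates TRBV2 and TRBV5 (0.0128 each).

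TRBD1 was named in 69.7% of TRBJ1 rearrangements, TRBD2 in 6.09%, and neither in 24.2%, against 32.5%, 50.0% and 17.6% in TRBJ2. The TRBD2 share ran from 4.21% in TRBJ1-4 to 8.20% in TRBJ1-6, and the caller's error rate for these short segments is not given in the sources used here.

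Superior and inferior samples were compared for each segment on templates, and 0 of 12 J segments (0%) passed edgeR's quasi-likelihood test, with 0 at an unadjusted p under 0.05 and 0 by DESeq2. TRBJ1-3 made up 6.90%, 6.22% and 6.61% of superior samples 1 to 3 and 7.38%, 7.50% and 8.20% of inferior samples 1 to 3. These values did not overlap, and TRBJ1-3 was the 1 of 6 tested TRBJ1 segments for which this held, beside 8.33% of all 12 J segments. Its log2 difference was -0.24 (SE 0.12, edgeR adjusted p = 0.423).
TRBJ1-5 was 3.45% and 5.77% in mouse 1, 2.65% and 4.35% in mouse 2, and 4.76% and 5.13% in mouse 3, superior before inferior. It was lower in the superior sample of each mouse, but the groups overlapped (log2 difference -0.49, SE 0.23, edgeR adjusted p = 0.423). Without mouse 3 the difference was -0.80 (edgeR adjusted p = 0.107). TRBJ1-1 had the opposite sign, 0.17 (SE 0.17), and was higher in the superior sample of 3 of 3 mice, also with overlap. TRBJ1-2, TRBJ1-4 and TRBJ1-6 had -0.06 (SE 0.26), -0.13 (SE 0.13) and -0.34 (SE 0.40), with adjusted p of 0.744 to 0.855. Without mouse 2, TRBJ1-6 had -0.63 (edgeR adjusted p = 0.717), and without mouse 3 TRBJ1-2 had 0.28.

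Templates per rearrangement did not overlap between the groups for TRBJ1-3 and TRBJ1-4, 2 of 6 TRBJ1 segments, beside 33.3% of all 12 J segments. TRBJ1-4 averaged 1.60 ± 0.0716 in superior and 1.95 ± 0.0563 in inferior samples, and TRBJ1-3 1.83 ± 0.0598 and 2.11 ± 0.171 (SD, n = 3 each). Inferior samples held more templates in mice 1 and 3 (1370 against 667, and 1855 against 1136) and fewer in mouse 2 (920 against 1095). In mouse 2, the inferior and superior values were 1.89 and 1.58 for TRBJ1-4, and 1.97 and 1.89 for TRBJ1-3. Both segments were named because their groups did not overlap, which by itself puts the inferior value higher in each mouse. The part of depth in this difference was not tested.

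Few TRBJ1 clonotypes, counted as the same V, CDR3 nucleotides and J, were found in both samples of a mouse. Mice 1, 2 and 3 had 11 of 358, 12 of 342 and 22 of 549 such clonotypes, together 3.60% (Wilson interval 2.70 to 4.79). TRBJ2-1 to TRBJ2-5 gave 4.33% (3.48 to 5.37) and TRBJ2-7 4.48% (3.22 to 6.20). TRBJ1-1 gave 2.92% (1.60 to 5.30) and TRBJ1-6 4.46% (1.92 to 10.03). The intervals of TRBJ1-1 and TRBJ1-6 overlap those of TRBJ2-1 to TRBJ2-5 and of TRBJ2-7.
The next shares count each clonotype once per sample, so a clonotype found in both samples counts in each, unlike in the shares above. Of such entries with 1 template, 6.05% of 430 from TRBJ1-1 and TRBJ1-6 were also in the mouse's other sample. For TRBJ1-2 to TRBJ1-5 the share was 4.72% of 318. Among entries with 2 or more templates, the shares were 10.3% of 39 and 8.93% of 504 in the same order. The Wilson intervals overlapped within each pair. They cover counting error only, and both entries of a shared clonotype are not independent, so the overlap cannot show whether the groups differ. A difference was not tested.

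The clonotypes with the most templates of each segment were each found in 1 mouse, and values follow for the superior and then the inferior sample. In TRBJ1-4, the TRBV31 clonotype printed above had 6 and 8 templates in mouse 3 and a TRBV13-2 clonotype 7 and 6 in mouse 1. In TRBJ1-2, a TRBV2 clonotype had 2 and 9 in mouse 3 and a TRBV3 clonotype 7 and 3 in mouse 2. In TRBJ1-5, a TRBV13-1 clonotype had 0 and 10 in mouse 3 and a TRBV20 clonotype 6 and 2 in mouse 2.
In TRBJ1-3, a TRBV13-2 clonotype had 6 and 2 in mouse 2 and a TRBV26 clonotype 2 and 6 in mouse 1. The TRBV5 clonotype of TRBJ1-1 had 1 and 3 in mouse 3. In TRBJ1-6 a TRBV26 clonotype led, with 3 and 0 templates in mouse 3. The larger count was in the superior sample for some and in the inferior for others.

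Between mice, 5 of 1208 TRBJ1 clonotypes were shared at the amino acid level, 0.414% (Wilson interval 0.177 to 0.965), against 25 of 2499 for TRBJ2, 1% (0.678 to 1.47). All 5 came from TRBJ1-2, TRBJ1-3 and TRBJ1-4, and TRBJ1-1 had 0 of 331, which allows up to 1.15% by the same interval. The TRBV2 to TRBJ1-4 clonotype of 12 residues had 3 templates in mouse 1 and 6 in mouse 3, and that of 14 residues 2 in mouse 2 and 5 in mouse 3. A TRBV20 to TRBJ1-3 clonotype had 2 in mouse 1 and 3 in mouse 3. These 3 had the same CDR3 nucleotides in both mice. The remaining 2, TRBV20 to TRBJ1-2 and TRBV4 to TRBJ1-2 with 3 templates each, had 2 CDR3 nucleotide forms.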

How the data were processed

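The deposited count per rearrangement, a whole number, was used as given by the authors. Whether input molecules or reads were counted is not stated, and the count is called templates here. The deposited productive fraction equals the count over the sample's sum and was not used further. Per the submitters' processing notes, the build was mm10. No aligner or caller is given in the sources used here. Segments, members and lists were chosen with earlier results of these data known.

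Shares used templates with a resolved J segment. Intervals are 95% Wilson intervals, and a count of 0 was limited by 3 counts. Counts were tested with edgeR 4.0.16 (R 4.3.3; quasi-likelihood, column totals as library size, common dispersion, at least 10 counts, Benjamini-Hochberg adjustment at 0.05), with DESeq2 1.42.0 as an alternative. V pairing and length classes used rearrangements summed per mouse, where one found in both samples counted in each. The edgeR step was run on counts simulated at a fixed dispersion with no mouse effect, for J usage, V pairing against TRBJ2 and length classes. V pairing among the TRBJ1 segments was not simulated. The outcome is not given here and is no support for the calls. Single values had two-sided exact permutation tests (3 against 3 samples) or sign-flips over 3 mice. Descriptions and figures were made with Python 3.11.15, pandas 2.3.3, scipy 1.17.1, numpy 2.4.6 and matplotlib 3.10.9.

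Samples were paired by mouse, because the titles give both the number of 1 animal. Their deviations from the group means over J segment shares correlated at 0.113, 0.936 and 0.760 in mice 1, 2 and 3. V and J names matched the RefSeq table of GRCm38.p6. Named were all TRBJ1 segments, the 5 V segments with the highest TRBJ1 share, those called, and the 3 with the largest difference in each direction. Named clonotypes were the 2 with the most templates per segment and those found in 2 or more mice, and the text gives most of them.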

Additional observations from a re-analysis of the deposited data

How the results depend on the processing

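Of 315 alternative values, 276 kept their direction and their side of the threshold or stayed within the spread. The call of TRBV13-2 gave way to 0 calls with DESeq2, with no filter, on templates, with merged clonotypes, without TRBJ2-7, with 6 samples and without each mouse (0 in each case); the cause was not tested. With no replicate block it stayed at 1. Among the TRBJ1 segments, 2 V segments in place of 0 were called with no replicate block, with TMM, with no filter and on templates. The length classes gave 1 call with DESeq2 and 5 without TRBJ2-7.

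In the comparison of superior with inferior samples, the replicate block, with the mouse as pairing, again gave 0 calls, with 1 J segment at an unadjusted p under 0.05, and the TRBJ1 share kept -3.02 points (exact sign-flip p = 0.25); the mouse block changed calls otherwise only among the TRBJ1 segments, as given above. Values near 0 changed sign. TRBJ1-2 was 0.015 with DESeq2, 0.03 with TMM, 0.038 with each rearrangement counted once, 0.012 with merged clonotypes and -0.33 to 0.28 with each mouse left out. TRBJ1-4 was 0.031 with each rearrangement and 0.17 with each merged clonotype counted once. With each mouse left out, TRBV19 ran from -0.195 to 0.080 and TRBV5 from -0.126 to 0.056. The TRBJ1 share by templates minus rearrangements was 5.36 without TRBJ2-7. With 6 samples as units, the differences of 0.308 and -0.732 templates per rearrangement had an exact p of 0.03125, but samples of a mouse are not independent. The range of segment means was 1.18 with merged clonotypes against 0.992. TRBJ1-7, with 4 templates, was below the minimum for tests.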
